A study of Mus musculus with 31 samples.

Results

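The genes described here are 33 glucocorticoid-responsive genes and glucocorticoid receptors in the caudate putamen (CPu), the dorsal part of the striatum, out of 52636 genes in the expression table. Members were taken by name and joined through their Ensembl identifiers, and all 33 were found. The list follows from a result in these data. Ddit4 and Sgk1 were chosen by their measured difference between vehicle administered Brd1+/- mice and imipramine administered WT mice, and the other 31 are genes known to respond to glucocorticoids, together with both receptors and the enzyme Hsd11b1. CPu punches came from 31 mice labelled as female, 8 to 11 weeks old, of the strain C57BL/6NTac-Brd1 (in full C57BL/6NTac-Brd1tm1.2Arte/AborgMmucd), and every mouse was sequenced on its own. WT mice carried both copies of Brd1, which encodes a chromatin reader, and Brd1+/- mice were heterozygous for a targeted deletion in it, carried in the whole animal and not restricted to one cell type. Mice were administered saline (vehicle; 8 WT and 7 Brd1+/-) or the tricyclic antidepressant imipramine (IMN; 8 WT and 8 Brd1+/-) at 10 mg/kg. All 4 groups went through tail suspension, open field and forced swim tests over a pair of days and were sacrificed an hour after the swim, so no group was free of handling, injection and swim stress.

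Corticosterone, the main glucocorticoid of the mouse, is released from the adrenal gland in a daily rhythm and within minutes of a stressor. In brain it binds the mineralocorticoid receptor (Nr3c2) and the glucocorticoid receptor (Nr3c1), which waits in the cytoplasm with chaperones of the heat shock family, moves to the nucleus once bound and switches genes on at paired half-sites called glucocorticoid response elements. Within an hour or a few hours its targets include a brake on the receptor itself (Fkbp5), inhibitors of inflammatory signaling (Tsc22d3, Nfkbia), kinase regulators (Sgk1, Ddit4, Errfi1), transcription factors (Klf9, Klf15, Zbtb16) and enzymes and coat proteins of fat and fuel metabolism (Plin4, Angptl4, Pdk4). Corticosterone in blood was not measured in the files used here.

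Levels are given as TPM, which scales a gene to its transcript length and to a fixed sum in each mouse. Differences are on the log2(TPM + 1) scale and come from limma, a linear model fitted over all genes, and a gene was called at p under 0.01, the study's nominal threshold, with the Benjamini-Hochberg false discovery rate (FDR) of 5% given beside it. Brd1 itself averaged 22.5 ± 2.97 TPM in WT vehicle and 19.9 ± 2.67 in WT IMN mice (SD, n = 8 each), against 13.4 ± 2.02 (SD, n = 7) and 12.8 ± 1.04 (SD, n = 8) in the Brd1+/- groups. The labelled tissue did not hold equally in all mice. Summed over 10 marker genes, cortical neuron transcripts ranged from 113 to 1974 TPM in WT vehicle mice with a median of 1443, and from 119 to 316 in Brd1+/- vehicle mice. Summed striatal projection neuron markers went from 293 to 10796 TPM in WT vehicle mice and from 8740 to 10117 in Brd1+/- vehicle mice. WT vehicle mouse 7 had 26.8 TPM summed over 4 Y-linked genes, against at most 0.188 in any other mouse, which goes against its label as female. WT vehicle mouse 1 was the highest of its group in 18 of the 32 members at a mean of at least 1 TPM. Brd1+/- IMN mouse 6 was the lowest of its group in 18 of 32. Results are therefore given with and without the mice on which they rest.

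Across all mice the members spanned a wide range of levels. Mt1, a metallothionein, had the highest mean (292 TPM), followed by Mt2 (271), Fam107a (234), Rhob (195), Klf9 (143) and Sgk1 (131). Lcn2, a secreted lipocalin, was the lowest, with a mean of 0.216 TPM, and was listed at 0 in 6 of 8 WT vehicle mice, and the other 32 members were above 0 in every mouse. Within groups, Rhob, Klf9, Gpd1 and Fkbp5 varied least, with median coefficients of variation of 12.1%, 12.2%, 12.6% and 13.1%. Plin4 (56.6%) and Zbtb16 (52.9%) varied most. Mt1 and Mt2 are neighbouring paralogs, and 73.5% of the exon bases of Mt2 overlap a gene on the opposite strand. The sources used here do not say whether strand was counted, so the values of Mt2 are uncertain.

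Ddit4 and Sgk1, the genes that prompted the list, lie on chromosome 10 (GRCm38, GENCODE M21) at chr10:59949669-59951834 on the minus strand and chr10:21882184-21999903 on the plus strand. Ddit4 encodes an inhibitor of the growth kinase complex mTORC1, and Sgk1 a kinase that acts on ion channels and transporters. In the comparison that singled them out, Ddit4 was lower in Brd1+/- vehicle than in WT IMN mice by a log2 difference of −0.81 and Sgk1 by −0.77. They were the only members past an FDR of 5% there (0.013% of all genes), and the next by rank were Rasd1 (−0.69) and Nfkbia (−0.54). In all, 12 of 33 members were past p 0.01 in that comparison, each lower in the Brd1+/- vehicle mice, with 2.29% of all genes past it and 1.59% lower. These values are a description, since they chose the genes, and nothing is read from them. That comparison shares the Brd1+/- vehicle mice with the effect of IMN in Brd1+/- mice and the WT IMN mice with the effect of IMN in WT mice, and both groups enter the effect averaged over genotypes, so for this pair the values below are not separate evidence. The other 31 were listed with earlier results of these data known, and 10 of them were called lower in that comparison. Counts for IMN without the pair are therefore not separate evidence either.

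The promoter windows of both genes and of Sult1a1, a member that was higher under IMN in both genotypes, are printed because these genes carry the results that follow. The windows are from RefSeq (GRCm38.p6), run from 250 bases before to 50 bases after a transcription start, and are written 5′ to 3′ on the gene's strand. Capitals mark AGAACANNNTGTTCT, the full glucocorticoid response element, in Sgk1, and its half-site AGAACA, or that half-site on the other strand, in Sult1a1.
Sgk1, chr10:21993640-21993939 (+): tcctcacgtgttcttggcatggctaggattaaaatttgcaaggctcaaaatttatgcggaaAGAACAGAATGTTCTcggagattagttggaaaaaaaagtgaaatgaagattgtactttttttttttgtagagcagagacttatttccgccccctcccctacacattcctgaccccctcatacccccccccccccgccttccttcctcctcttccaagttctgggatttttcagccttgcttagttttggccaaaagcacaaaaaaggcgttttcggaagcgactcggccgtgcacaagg
Sult1a1, chr7:126676369-126676668 (−): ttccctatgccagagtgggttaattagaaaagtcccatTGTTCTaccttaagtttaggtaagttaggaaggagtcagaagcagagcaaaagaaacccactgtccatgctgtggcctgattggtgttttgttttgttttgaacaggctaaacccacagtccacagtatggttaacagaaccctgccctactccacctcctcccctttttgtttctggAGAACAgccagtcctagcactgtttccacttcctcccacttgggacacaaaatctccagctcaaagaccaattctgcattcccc
Ddit4, chr10:59951721-59952020 (−): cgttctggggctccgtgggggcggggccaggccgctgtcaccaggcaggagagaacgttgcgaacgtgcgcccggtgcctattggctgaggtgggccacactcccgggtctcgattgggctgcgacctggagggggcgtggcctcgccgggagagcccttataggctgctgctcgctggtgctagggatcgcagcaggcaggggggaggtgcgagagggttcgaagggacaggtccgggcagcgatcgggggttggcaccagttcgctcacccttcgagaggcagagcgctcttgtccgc
Both strands were searched. The full element was present in 3 of 32851 windows, or 3 of 27025 genes (0.0111%), and the window of Sgk1 was 1 of them, with the match running from 189 to 175 bases before the start. Sgk1 has 6 windows for its several starts, and the other 5 hold no full element. Of the 25 members with a window, 1 (4%) held the full element. The inner letters ACANNNTGT, which are part of the full element, occurred in 5 of these 25 members (20%) and in 7.9% of all genes. The half-site AGAACA, also part of it, occurred in 4 of 25 members (16%; Fam107a, Sgk1, Sult1a1 and Tsc22d3) and in 21.3% of all genes. The Ddit4 window holds none of these letters. The stretches of 15 bases around ACANNNTGT are shown with those inner letters in capitals, to compare how many of the 12 fixed letters of the full element each one has.
Sgk1, 12 of 12: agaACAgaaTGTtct
Fam107a, 10 of 12: tggACAtggTGTtct
Lcn2, 9 of 12: tcaACAgaaTGTact
Map3k6, 9 of 12: ggcACAggcTGTtcc
Mt1, 9 of 12: gggACAtgaTGTtcc
Sgk1, second window, 7 of 12: gaaACAgttTGTcta
A match is a description of letters and not of binding, and the window leaves out distant elements. Nr3c1, Rasd1, Tgm2, Zbtb16, Cebpd, Angptl4, Gpd1 and Xdh had no window here.

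IMN raised 14 of the 33 members in Brd1+/- mice and lowered none at p under 0.01 (limma, n = 8 IMN and 7 vehicle), while 1.83% of all genes were called and 0.869% of all genes were called as higher. The 14 were Ddit4, Sgk1, Errfi1, Cdkn1a, Rasd1, Fam107a, Arrdc2, Nfkbia, Klf15, Zbtb16, Plin4, Angptl4, Xdh and Sult1a1. Without Ddit4 and Sgk1 the count was 12 of 31, which is not separate evidence either, as given above. Oligodendrocyte markers had a median log2 difference of 0.48 in this comparison, with 0 of 10 called. Striatal markers had one of −0.19, with 1 of 10 called, as lower. With the striatal marker mean as a covariate 9 were called (1.49% of all genes), and Nfkbia, Errfi1, Cdkn1a, Rasd1, Klf15 and Zbtb16 lost their calls while Lcn2 gained one. Lcn2, listed at 0 in most vehicle mice, passed the filter on low values through the IMN mice. The others called were Ddit4, Sgk1, Fam107a, Arrdc2, Plin4, Angptl4, Xdh and Sult1a1. With the oligodendrocyte marker mean, Nfkbia, Errfi1, Fam107a and Xdh lost theirs. Over 10 alternative settings the lowest log2 differences were 0.35 for Nfkbia, 0.21 for Errfi1, 0.33 for Fam107a and 0.35 for Xdh. They were 0.44 for Cdkn1a, 0.33 for Rasd1, 0.41 for Klf15 and 0.65 for Zbtb16. Of all 33 members 30 had a positive log2 difference, with a median of 0.35 against 0.01 over all genes tested. None of these genes passed an FDR of 5%, as was true of all 23020 genes in this comparison, and 18 members were at p under 0.05, all higher, with 7.09% of all genes. In bulk tissue, fewer cells of a type and less RNA per cell cannot be told apart in any of these values.

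Among regulators of kinases and growth, Ddit4 ranged from 14.7 to 23.9 TPM in Brd1+/- vehicle mice (median 18.6) and from 22 to 50.2 in Brd1+/- IMN mice (median 33.8). The groups touched at 1 mouse, and 7 of 8 IMN mice lay above the highest vehicle mouse. Ddit4 was 1.83-fold higher, a log2 difference of 0.87 (SE 0.15, adjusted p = 0.115). Sgk1 ranged from 64.1 to 95.7 TPM under vehicle (median 85.4) and from 89.1 to 283 under IMN (median 149). Again 7 of 8 IMN mice exceeded every vehicle mouse, and mouse 6 did not. The log2 difference of Sgk1 was 0.90 (SE 0.20, adjusted p = 0.285), or 1.86-fold.
Arrdc2, an arrestin-domain protein that sorts membrane proteins, rose 1.99-fold (log2 difference 0.99, SE 0.27, adjusted p = 0.405), from 4.73 to 13.3 TPM under vehicle (median 8.65) to 7.87 to 36.6 under IMN (median 15.4). Cdkn1a, which encodes an inhibitor of cyclin-dependent kinases, ranged from 15.8 to 23.9 TPM under vehicle (median 16.5) and from 21.9 to 42.3 under IMN (median 28.1), a log2 difference of 0.60 (SE 0.14, adjusted p = 0.307). For both genes 6 of 8 IMN mice lay above the highest vehicle mouse. Smaller calls were made for Fam107a, an actin-binding stress gene (199 ± 22.5 to 271 ± 54.5 TPM, SD, log2 difference 0.42), Errfi1, a feedback inhibitor of the EGF receptor (18.2 ± 1.44 to 24.0 ± 5.51 TPM, 0.35) and Rasd1, a dexamethasone-induced small GTPase (2.32 ± 0.60 to 4.04 ± 1.94 TPM, 0.55). Errfi1 and Rasd1 passed in only 6 and 8 of the 15 fits that left out 1 mouse each. Rhob, Nedd9, Tgm2 and Map3k6, a small GTPase, an adhesion scaffold, a transglutaminase and a stress kinase, had log2 differences from 0.07 to 0.30 and did not pass.

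**Figure D1:**
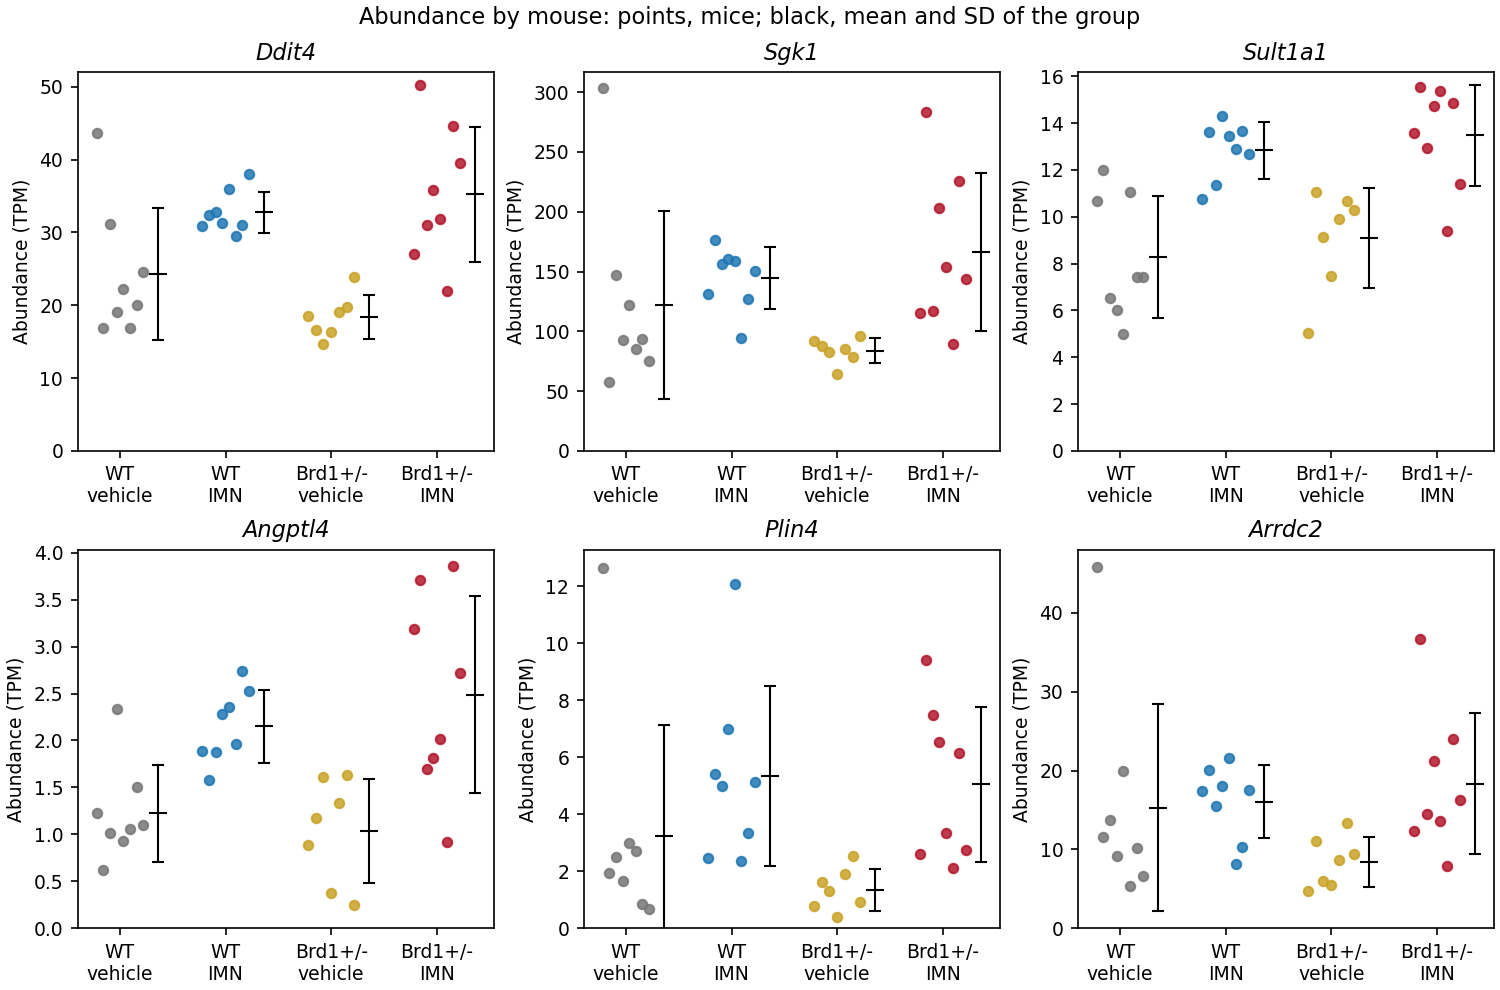
TPM of 6 members (vertical axes, linear) in each mouse of the 4 groups, with the mean and SD of each group beside the points (for Plin4 in WT vehicle mice the lower bar is cut at 0). For Ddit4, the WT IMN mice lie between 29.5 and 38.0 TPM, and WT vehicle mouse 1 stands at 43.6 TPM, above all of them.

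Of the 7 genes of fat, fuel and other metabolism, 4 rose in Brd1+/- mice, where 0.869% of all genes were called as higher. Plin4, a coat protein of lipid droplets at chr17:56100591-56109803, ranged from 0.391 to 2.54 TPM under vehicle (median 1.31) and from 2.11 to 9.43 under IMN (median 4.74). Its log2 difference of 1.29 (SE 0.27, adjusted p = 0.231) was the largest of the members, and 7 of 8 IMN mice were above every vehicle mouse. Angptl4, a secreted inhibitor of lipoprotein lipase, went from 0.244 to 1.63 TPM (median 1.17) to 0.920 to 3.85 TPM (median 2.37), a log2 difference of 0.77 (SE 0.22, adjusted p = 0.408).
Sult1a1, a sulfotransferase that conjugates phenols, lay between 5.03 and 11.1 TPM under vehicle (median 9.91) and between 9.41 and 15.6 under IMN (median 14.2), a log2 difference of 0.54 (SE 0.15, adjusted p = 0.404). For each of these genes the IMN mouse within the vehicle range was mouse 6. Xdh, the enzyme that makes uric acid, rose from 4.27 ± 1.29 to 5.98 ± 0.724 TPM (SD; log2 difference 0.43, adjusted p = 0.479) and passed in 9 of 15 fits that left out 1 mouse. Pdk4 (0.30), which holds back glucose oxidation, Pnpla2 (0.28), a triglyceride lipase, and Gpd1 (−0.01), a glycerol phosphate dehydrogenase, did not pass.

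Among transcription factors, Zbtb16, a zinc finger repressor, went from 1.88 to 7.46 TPM under vehicle (median 6.14) to 6.11 to 18.2 TPM under IMN (median 10.7; log2 difference 0.98, SE 0.28, adjusted p = 0.408). Of the IMN mice 5 of 8 exceeded every vehicle mouse. Klf15, a regulator of amino acid and glucose use, rose from 13.1 ± 3.03 to 19.6 ± 4.53 TPM (SD; log2 difference 0.55, adjusted p = 0.416). Klf9 did not pass (140 ± 13.3 and 143 ± 18.7 TPM, SD), nor did Hif3a (0.49, SE 0.21), Cebpb (0.33, SE 0.15) or Cebpd (0.39, SE 0.18). Of the anti-inflammatory genes, Nfkbia, which holds NF-kB in the cytoplasm, rose from 19.8 ± 2.80 to 28.6 ± 7.41 TPM (SD; log2 difference 0.48, adjusted p = 0.441). Fkbp5 (24.1 ± 1.32 and 26.3 ± 3.66 TPM, SD, adjusted p = 0.814) and Tsc22d3 (40.6 ± 15 and 46.5 ± 21.1 TPM, SD, adjusted p = 0.95) did not pass. Lcn2 was listed at 0 in 5 of 7 vehicle and 2 of 8 IMN mice. The receptors Nr3c1 (27.3 ± 7.06 and 24.2 ± 2.83 TPM, SD) and Nr3c2 (14.7 ± 3.56 and 15.8 ± 3.33 TPM, SD), Hsd11b1, Mt1 and Mt2 did not pass either.

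**Figure D2:**
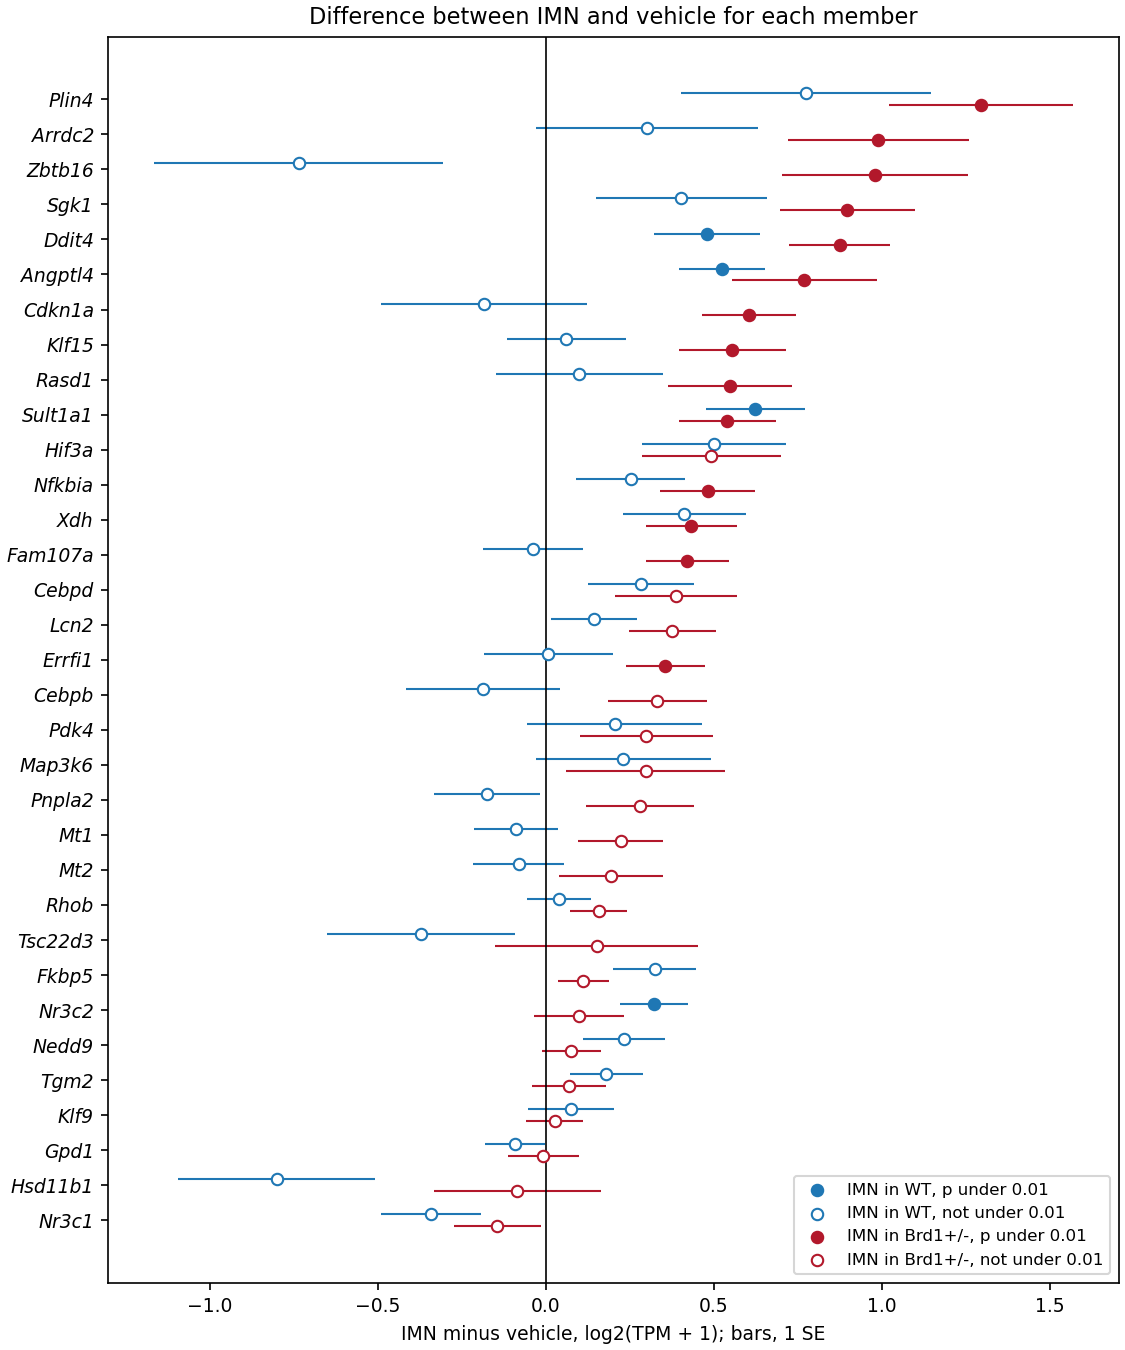
Log2 difference of IMN against vehicle (horizontal axis, log2(TPM + 1) scale) with its standard error for each of the 33 members, in WT (blue) and Brd1+/- mice (red), with filled points at p under 0.01. In Brd1+/- mice 30 of 33 points lie above 0 and 14 are filled, and in WT mice 22 lie above 0 and 4 are filled.

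The same question in WT mice uses other animals. There IMN raised 4 of the 33 members and lowered none (limma, n = 8 each, p under 0.01), with 6.95% of all genes called and 1.35% of all genes called as higher. Without Ddit4 and Sgk1 the count was 3 of 31. Tissue markers differed between these groups as well. Summed cortical markers had a median of 1443 TPM in vehicle and 169 in IMN mice and striatal markers one of 4117 and 9033, with median log2 differences of −1.96 and 1.48 over the 10 genes of each list. With the mean of the striatal markers as a covariate 2 members were called, Angptl4 and Sult1a1 (1.28% of all genes), and with that of the cortical markers 5, Nfkbia, Ddit4, Hif3a, Angptl4 and Sult1a1 (1.33%). The median over members was 0.14 and over all genes −0.08. They were Sult1a1 (log2 difference 0.62, SE 0.15), Angptl4 (0.52, SE 0.13), Nr3c2 (0.32, SE 0.10) and Ddit4 (0.48, SE 0.16), each with an adjusted p of 0.141. None of the members and 0.00424% of all genes passed an FDR of 5%, and 9 members were at p under 0.05, with 23.1% of all genes. Sult1a1 ranged from 5.01 to 12 TPM in vehicle mice (median 7.45) and from 10.8 to 14.3 in IMN mice (median 13.2), with 6 of 8 IMN mice above every vehicle mouse. Angptl4 ranged from 0.622 to 2.34 TPM (median 1.08) under vehicle and from 1.58 to 2.74 (median 2.12) under IMN. Both were called in all 16 fits that left out 1 mouse. Nr3c2, the mineralocorticoid receptor, averaged 11.7 ± 2.07 TPM under vehicle and 14.8 ± 1.53 under IMN (SD), and was called in 10 of 16 such fits. It was not called with either the cortical (0.31, adjusted p = 0.725) or the striatal covariate (0.25, adjusted p = 0.814).

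The calls for Ddit4 and Sgk1 in WT mice moved with single mice. Ddit4 ranged from 16.9 to 43.6 TPM under vehicle (median 21.1) and from 29.5 to 38.0 under IMN (median 31.8). All 8 IMN mice lay above the vehicle median, 6 of 8 vehicle mice lay below every IMN mouse, and mouse 1, at 43.6, lay above all of them. Sgk1 ranged from 58.0 to 304 TPM under vehicle (median 93.0) and from 94.5 to 177 under IMN (median 153), and mouse 1 was again the highest. The log2 difference of Sgk1 was 0.40 (SE 0.25, adjusted p = 0.344) and did not pass. Without mouse 1, Ddit4 differed by 0.60 (adjusted p = 0.217) and Sgk1 by 0.62 (adjusted p = 0.239), and 9 members were called as higher (Nr3c2, Nfkbia, Ddit4, Sgk1, Hif3a, Plin4, Angptl4, Xdh and Sult1a1), with 4.07% of all genes called. Ddit4 was called in only 4 of the 16 fits that left out 1 mouse (without WT vehicle mouse 1, 3 or 8 or WT IMN mouse 6), with log2 differences from 0.42 to 0.60 over the 16. Its call was lost without any of the other 12, WT vehicle mice 2, 4, 5, 6 and 7 and WT IMN mice 1, 2, 3, 4, 5, 7 and 8. Without mouse 7, whose Y-linked transcripts go against its label, 3 members were called (Nr3c2, Angptl4 and Sult1a1), with 4.58% of all genes, and Ddit4 differed by 0.45 (adjusted p = 0.208), which did not pass. Without WT vehicle mouse 5, or WT IMN mouse 2, 3 or 4, the count was 2, with 3.88% to 4.37% of all genes called. Hsd11b1, which regenerates active glucocorticoid, was at 5.90 ± 6.44 TPM under vehicle and 2.22 ± 0.427 under IMN (SD; log2 difference −0.80, adjusted p = 0.151), and vehicle mouse 2 held 21.7 TPM. Nr3c1 differed by −0.34 (adjusted p = 0.185) and Fkbp5 by 0.32 (adjusted p = 0.159), neither past the threshold.

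The effects of IMN in WT and in Brd1+/- mice share no animal. Members called as higher in both were 3, Ddit4, Angptl4 and Sult1a1, which are 75% of the 4 called in WT and 21.4% of the 14 called in Brd1+/- mice. The WT call for Ddit4 in this overlap is the one that held in 4 of 16 fits, while those for Angptl4 and Sult1a1 held in all 16. Over the 22626 genes tested in both, 9 (0.0398%) were called as higher in both. By sign alone 22 members were higher in both, 3 lower in both and 8 opposite. Of all genes, 32.5% had a positive difference in WT and 54.4% in Brd1+/- mice. The comparison of Brd1+/- IMN with WT vehicle mice uses none of the mice by which Ddit4 and Sgk1 were chosen, and 14.2% of genes were called in it, 1.25% as higher, with 9.72% past an FDR of 5%. Of the members 4 were called, all higher, Nr3c2 (0.39), Angptl4 (0.62), Xdh (0.56) and Sult1a1 (0.68), and of these Angptl4 and Sult1a1 passed the FDR. Cortical markers had a median log2 difference of −2.15 and striatal markers one of 1.47 in this comparison. Their part in the values of these 4 members was not tested. Only Ddit4 and Sgk1 were fitted again with marker means as covariates, and some of those fits are given below. Ddit4 was higher by 0.54 (SE 0.19, adjusted p = 0.0783) and Sgk1 by 0.53 (SE 0.30, adjusted p = 0.242), and neither was called. Without WT vehicle mouse 1 the values were 0.67 and 0.75, both called, and without WT vehicle mouse 3 or Brd1+/- IMN mouse 6 Ddit4 also passed (0.60 and 0.63).

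Averaged over genotypes, in 1 fit of all 31 mice, IMN raised 11 of 33 members and lowered none at p under 0.01, where 5.88% of all genes were called, 1.35% as higher and 4.53% as lower. Without Ddit4 and Sgk1, whose choice used both the Brd1+/- vehicle and the WT IMN mice of this fit, the count was 9 of 31. The median was 0.21 against −0.03 over all genes. Past an FDR of 5%, which 0.453% of genes passed, were 4 members, Ddit4 (0.68, SE 0.11, adjusted p = 0.00499), Sult1a1 (0.58, SE 0.11, adjusted p = 0.0104), Angptl4 (0.65, SE 0.13, adjusted p = 0.0167) and Plin4 (1.03, SE 0.24, adjusted p = 0.0456). The values of Ddit4 and Sgk1 here are a description for the same reason. The other 7 were Sgk1 (0.65, adjusted p = 0.0699), Xdh (0.42), Nfkbia (0.37), Hif3a (0.50), Fkbp5 (0.22), Arrdc2 (0.65) and Lcn2 (0.26). Lcn2 was above 0 in 2 of 8 WT and 2 of 7 Brd1+/- vehicle mice and in 5 of 8 and 6 of 8 IMN mice, so it passed the filter on low values through the IMN mice, and without it the count was 10 of 32. Of the 31 fits that left out 1 mouse, Fkbp5 was called in 20, Arrdc2 in 16 and Lcn2 in 8, and the other 8 members in all 31. Fkbp5 was not called with the cortical or the striatal covariate, nor Lcn2 with the striatal one. Cortical markers had a median log2 difference of −0.97 and striatal markers one of 0.65 in this comparison, and 2 of 5 erythrocyte markers were lower. Hif3a, an oxygen-regulated factor, averaged 5.26 ± 2.48 and 7.71 ± 2.67 TPM in WT and 4.21 ± 1.00 and 6.67 ± 2.94 TPM in Brd1+/- mice (SD, vehicle and IMN). Fkbp5 averaged 21.7 ± 5.48 and 27.0 ± 3.30 TPM in WT mice (SD). Without WT vehicle mouse 1, 11 members were called (4.97% of all genes) and 7 passed the FDR. Without mouse 7, 8 were called (5.12% of all genes) and 3 passed the FDR, Plin4 being the one lost (adjusted p = 0.0735). Nr3c1 differed by −0.24 (adjusted p = 0.224), which did not pass. The metallothioneins, the genes whose level was highest, differed by 0.07 (Mt1) and 0.06 (Mt2).

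The scale of the table was varied. After scaling TPM by median-of-ratios factors, IMN averaged over genotypes raised 15 members and lowered none, and raised 14 in Brd1+/- and 6 in WT mice, with none lowered. The 15 and the 14 each include Lcn2, and without it they were 14 and 13. Under this scaling 5.4% of all genes were called for IMN averaged, 1.99% in Brd1+/- and 6.02% in WT mice. Whether IMN acted differently in the genotypes was tested as an interaction. Of the 33 members 1 (3.03%) passed, Zbtb16 (1.71, SE 0.54, adjusted p = 0.261), where 3.74% of all genes passed, 2.97% as higher. For Ddit4 the difference between genotypes was 0.40 (SE 0.23, adjusted p = 0.375) and for Sgk1 0.49 (SE 0.34, adjusted p = 0.467). Zbtb16 ranged from 2.66 to 32.5 TPM in WT vehicle mice (median 14.5) and from 2.94 to 21.5 in WT IMN mice (median 8.26), which overlap widely. Without WT vehicle mouse 8 or Brd1+/- IMN mouse 6 the count was 2, with 10.2% and 3.61% of all genes. Zbtb16 was called in the 31 fits that each left out 1 mouse, but not once the mean of the cortical or of the striatal markers was a covariate (1.04, adjusted p = 0.89, and 0.97, adjusted p = 0.998).

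Genotype was compared under each treatment. Under vehicle, 2 of the 32 members tested were called, both lower in Brd1+/- mice, where 13.6% of all genes were called, 12.1% as lower, so the members' share of 6.25% was below that of all genes. The median over members was −0.23 and over all genes −0.13. Zbtb16 fell from 16.8 ± 10.4 TPM (SD, n = 8) to 5.26 ± 2.30 (SD, n = 7), a log2 difference of −1.34 (SE 0.40, adjusted p = 0.0583). Cebpb, a stress-responsive transcription factor of which 20.7% of exon bases overlap a gene on the opposite strand, fell from 2.27 ± 1.06 to 1.04 ± 0.408 TPM (SD; −0.63, SE 0.21, adjusted p = 0.0699). Zbtb16 was called in 13 and Cebpb in 6 of the 15 fits that left out 1 mouse. Without WT vehicle mouse 7, Cebpb (−0.56, adjusted p = 0.119) was not called and Pnpla2 was, so the count of 2 was then of Zbtb16 and Pnpla2. With median-of-ratios scaling the 2 calls were Zbtb16, lower, and Nr3c2, higher (0.47), and Cebpb (−0.51) was not called. Summed cortical markers were higher in the WT vehicle mice, as given above, and with their mean as a covariate Zbtb16 differed by −0.56 (adjusted p = 0.657), Cebpb by −0.23 (adjusted p = 0.733) and no member was called, while the share of all genes called went from 13.6% to 1.93%. The count was 1 without any of 8 of the mice (WT vehicle 1, 2, 3 or 5, or Brd1+/- vehicle 1, 3, 5 or 7) 0 without Brd1+/- vehicle mouse 4 and 3 without WT vehicle mouse 6 or 8 or Brd1+/- vehicle mouse 6, with 8.89% to 22.4% of all genes called over these fits. Ddit4 (−0.33, adjusted p = 0.216) and Sgk1 (−0.36, adjusted p = 0.351) did not pass, nor did Nr3c1 (−0.22), Nr3c2 (0.29), Fkbp5 (0.18) and Tsc22d3 (−0.53).
Under IMN, 0 of 33 members were called by limma, 0 were at p under 0.05, and 0.703% of all genes were called, 3.92% being at p under 0.05 and 0.00428% past an FDR of 5%. Log2 differences ran from −0.39 for Map3k6 to 0.37 for Zbtb16. Ddit4 averaged 32.7 ± 2.86 TPM in WT and 35.2 ± 9.29 in Brd1+/- mice (SD, n = 8 each; 0.07, SE 0.13), and Sgk1 144 ± 25.7 and 166 ± 65.8 (SD; 0.13, SE 0.20). Brd1+/- mice spread more widely for both. Without Brd1+/- IMN mouse 6, which was low for most members, 1 member was called, with 0.808% of all genes.

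Other genes of the receptor's pathway were counted list by list, with IMN averaged over genotypes, where 5.88% of all genes were called, 1.35% as higher and 4.53% as lower. Of 21 tested genes for receptor partners and steroid handling, IMN lowered 5 and raised 1. The 3 with the smallest p were the chaperone genes Dnajb1 (−0.34, adjusted p = 0.0476) and Hspa8 (−0.27, adjusted p = 0.0664) and the receptor chaperone Hsp90ab1 (−0.18, adjusted p = 0.106). After median-of-ratios scaling 3 were lowered, those same genes, and 1 was raised. Of 12 further glucocorticoid targets tested, IMN raised 2 and lowered 1, the smallest p being those of Dusp1, a MAP kinase phosphatase (−0.46, adjusted p = 0.0682), Txnip, a thioredoxin inhibitor (0.46, adjusted p = 0.092) and Mfsd2a, a lipid transporter (0.20, adjusted p = 0.164). Of 10 genes that neurons switch on with activity 6 fell and none rose, led by Arc (−1.13, adjusted p = 0.000253), Egr1 (−0.51, adjusted p = 0.0112) and Npas4 (−0.80, adjusted p = 0.0418). The 6 fell under median-of-ratios scaling too.

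Which members moved together was asked among mice of the same group. Each group's mean was removed, and 496 pairs of the 32 members at a mean of at least 1 TPM were correlated over the 31 mice, with p from 100000 permutations within groups. Pearson's r was positive in 405 pairs, with a median of 0.283, and 114 pairs passed an adjusted p of 0.05, of which 111 were positive. Over all pairs of the 17391 genes at that level the median r was 0.106 and 64.2% of pairs were positive, against 81.7% of the member pairs. How many of all gene pairs would pass the same test was not counted. The 114 can therefore not be read as particular to the members. With the mean of the oligodendrocyte markers removed, the members' median was 0.143. The closest pairs were Sgk1 with Errfi1 (r = 0.874, Spearman's rho = 0.862), Errfi1 with Arrdc2 (r = 0.874, rho = 0.845), Arrdc2 with Klf15 (r = 0.872, rho = 0.80), Ddit4 with Sgk1 (r = 0.85, rho = 0.76) and Nfkbia with Arrdc2 (r = 0.842, rho = 0.769). For Pearson's r, each of these had the smallest p that the permutations can give, 1e-05 (adjusted p = 0.00031), and Spearman's rho had p of at most 2e-05. Further close pairs were Plin4 with Pnpla2 (r = 0.824), a lipid droplet coat with a lipase, and Cdkn1a with Zbtb16 (r = 0.81). Leaving out the 2 mice farthest from the median of the first gene gave r from 0.691 to 0.829 over the 10 closest pairs.
Ddit4 and Sgk1 were positively related in each group, with r of 0.897 in WT vehicle, 0.481 in Brd1+/- vehicle, 0.549 in WT IMN and 0.923 in Brd1+/- IMN mice. The paralogs Mt1 and Mt2 reached r = 0.565. The 3 negative pairs that passed were Rasd1 with Klf9 (r = −0.664, rho = −0.361), Rasd1 with Gpd1 (r = −0.544, rho = −0.346) and Nr3c1 with Fkbp5 (r = −0.538, rho = −0.448), receptor and brake. Without the 2 farthest mice Rasd1 with Klf9 fell to r = −0.241 and Rasd1 with Gpd1 to −0.279, so both rest on those mice, whereas Nr3c1 with Fkbp5 kept −0.50.

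**Figure D3:**
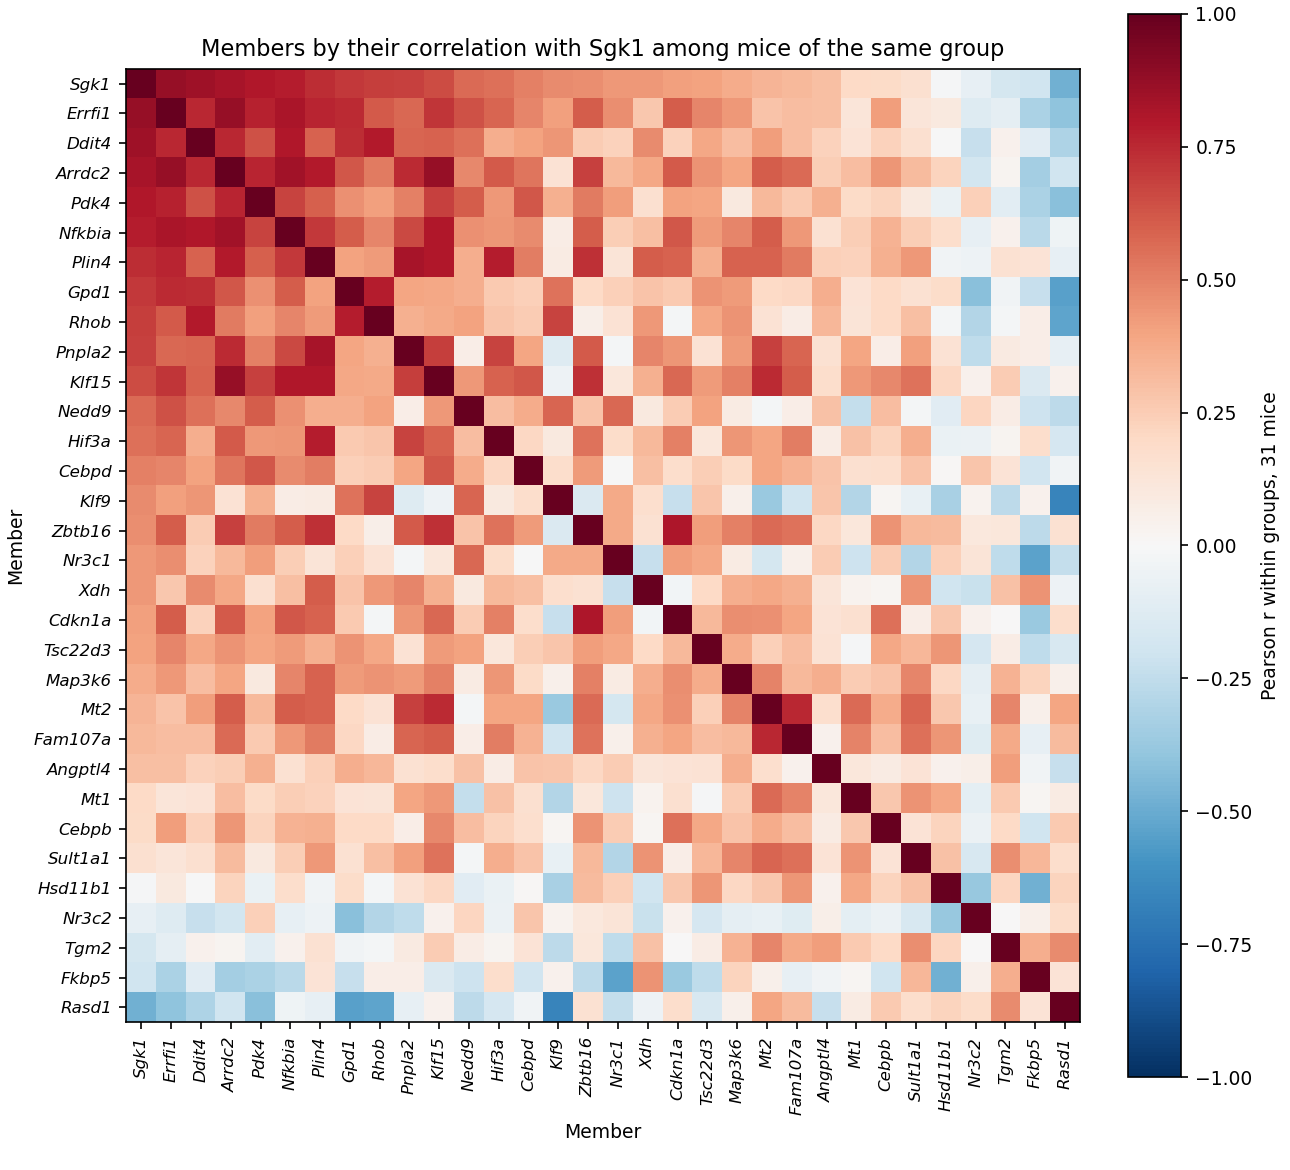
Within-group Pearson r between members (color scale from negative to positive), over 31 mice with group means removed, with members ordered by their r with Sgk1. Positive values prevail among the members nearest Sgk1 (Errfi1, Ddit4, Arrdc2 and Pdk4 have r from 0.802 to 0.874 with it).

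The markers of glia were then set against the members within groups. Against the mean of 10 oligodendrocyte markers, 15 of 32 members passed an adjusted p of 0.05 (permutation test, 384 relations of 32 members with 12 lists), all positive and at r of at least 0.49, which 9.4% of 17381 other genes reached, led by Sgk1 (r = 0.896, rho = 0.897), Arrdc2 (r = 0.875), Errfi1 (r = 0.862), Pdk4 (r = 0.793) and Ddit4 (r = 0.743, rho = 0.691). Without the 2 mice farthest in the markers r was 0.86 for Sgk1 and 0.603 for Ddit4. Sult1a1 (r = 0.231), Angptl4 (r = 0.314) and Fkbp5 (r = −0.274) did not pass. Against the astrocyte marker mean 16 members passed, at r of at least 0.495, which 20.7% of all genes reached, led by Arrdc2 (r = 0.884), Errfi1 (r = 0.815) and Klf15 (r = 0.813). Summed oligodendrocyte markers ran from 1423 to 9546 TPM in WT vehicle, 1380 to 4105 in Brd1+/- vehicle, 1398 to 4937 in WT IMN and 1277 to 7559 in Brd1+/- IMN mice. Their median log2 difference for IMN in Brd1+/- mice was 0.48, and 0 of 10 were called.
With the oligodendrocyte marker mean as a covariate, an alternative chosen after seeing the data, IMN in Brd1+/- mice gave Sgk1 a difference of 0.62 (adjusted p = 0.0272) and Ddit4 one of 0.71 (adjusted p = 0.0342), both past an FDR of 5%, and 10 members were called in place of 14, with 1.86% of all genes called. IMN in WT mice then gave Sgk1 0.47 and Ddit4 0.51, each with an adjusted p of 0.137, and 7 members called, with 7.18% of all genes called. The same covariate lowered the correlation of Sgk1 with Arrdc2 from 0.821 to 0.173 and that of Sgk1 with Errfi1 to 0.452, and left 0.619 for Ddit4 with Sgk1, 0.754 for Arrdc2 with Klf15 and 0.772 for Cdkn1a with Zbtb16. Cdkn1a and Zbtb16 both followed the cortical markers within groups, as given below.

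**Figure D4:**
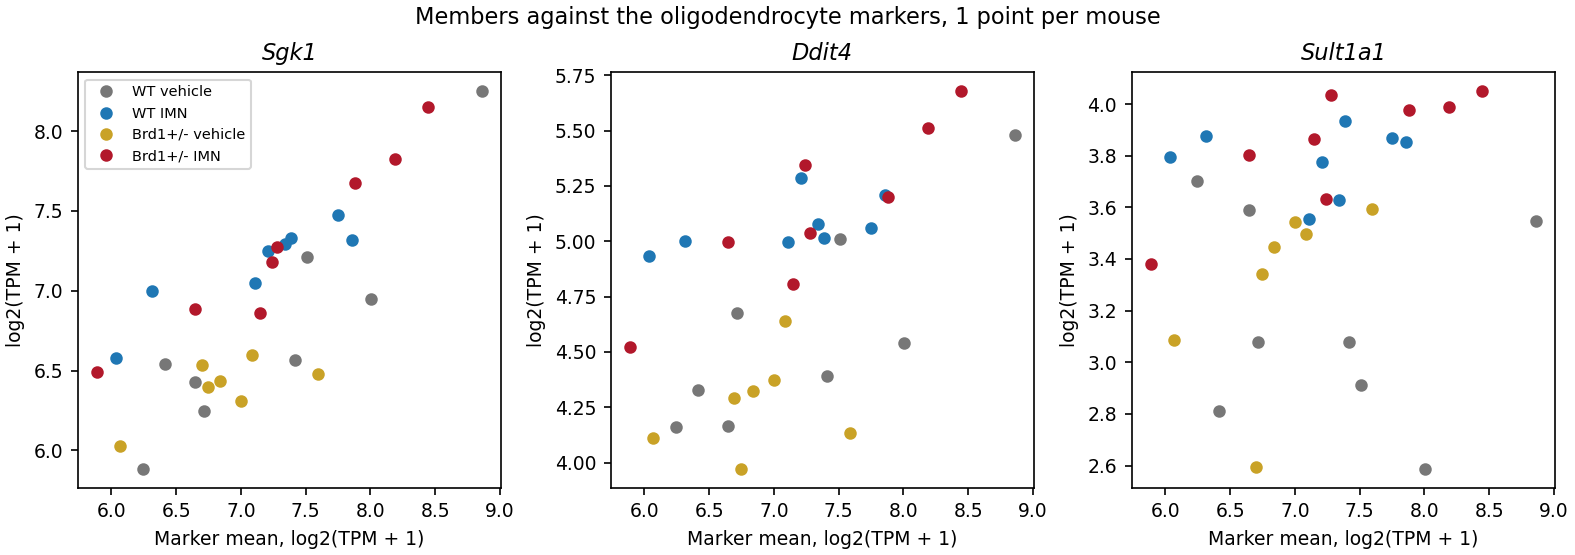
Log2(TPM + 1) of Sgk1, Ddit4 and Sult1a1 (vertical axes) against the mean log2(TPM + 1) of 10 oligodendrocyte markers (horizontal axis), 1 point per mouse, colored by group. Sgk1 climbs with the markers within each group (within-group r = 0.896), and Sult1a1 does so less (r = 0.231).

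The 5 genes outside the list closest to Sgk1 within groups were Phlpp1 (r = 0.934), Scd2 (0.931), Unc5b (0.926), Myo1d (0.922) and Tmem63a (0.921), of 17390 genes at a mean of at least 1 TPM, given as a description. Its closest member, Errfi1, ranked 101 and Ddit4 166, and the median r of all genes with Sgk1 was 0.0959.
The same was asked of cortical markers. Against their mean, 7 of 32 members (21.9%) passed, at r of at least 0.513, which 21.7% of all genes reached, so the members' share was near that of genes in general. They were led by Cdkn1a (r = 0.773, rho = 0.719), Zbtb16 (r = 0.683, rho = 0.598) and Nr3c1 (r = 0.613, rho = 0.555), while Ddit4 (r = 0.225) and Sgk1 (r = 0.321) did not pass. Without the 2 mice farthest in the markers r was 0.648 for Cdkn1a, 0.584 for Zbtb16 and 0.414 for Nr3c1.

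**Figure D5:**
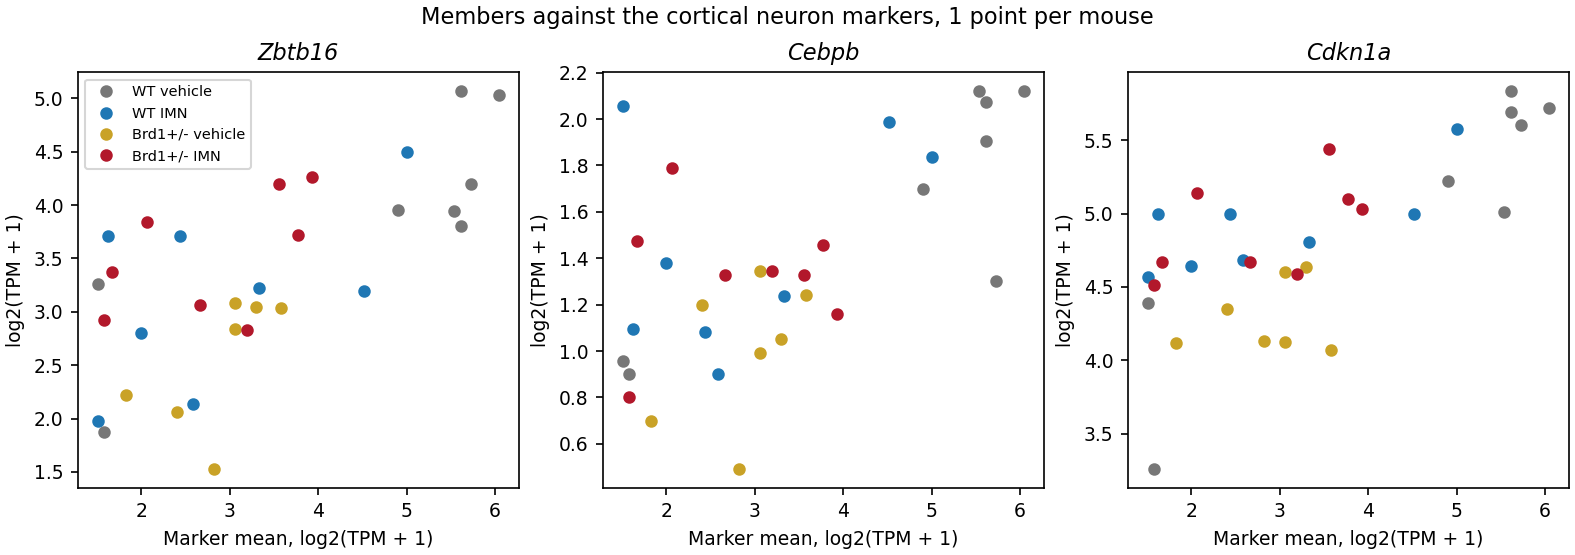
Log2(TPM + 1) of Zbtb16, Cebpb and Cdkn1a (vertical axes) against the mean log2(TPM + 1) of 10 cortical neuron markers (horizontal axis), 1 point per mouse, colored by group. The WT vehicle mice reach a marker mean of 6.04, and the Brd1+/- vehicle mice at most 3.58.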

How the data were processed

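Single-end reads of CPu RNA came from a BGISEQ-500 sequencer. Per the submitters' processing notes, reads passed FastQC and Trimmomatic and were aligned to GRCm38 with HISAT2 2.1.0 and quantified with StringTie 1.3.4. The authors deposited TPM for 52636 Ensembl genes, each mouse summing to between 999787 and 999918. TPM keep no read counts, so the depth of each library is unknown beyond the minimum number of reads that the study's methods set, and precision rests on the spread between mice.

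Groups came from the sample labels. Symbols and positions came from GENCODE M21 (52403 identifiers matched). A gene was tested if at least 7 of the mice in a fit exceeded 0.1 TPM, on log2(TPM + 1), where fold changes of low genes are understated, with limma 3.58.1 in R 4.3.3 (two-sided, trended prior), each pair of groups in its own fit and all 4 groups in 1 fit for the averaged effect and the interaction. P values were adjusted over all genes tested. The count test of the study, edgeR, was not run on TPM. The fits were tested on simulated data.

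The members and gene lists were chosen with earlier results of these data known. Values are given for Ddit4, Sgk1, Fkbp5, Tsc22d3, both receptors and every member with p under 0.01 in any of 6 comparisons, for up to 3 genes of each other list, for the 10 closest member pairs and for the 5 genes nearest Sgk1. Lcn2, at a mean under 1 TPM, was not correlated and was not tested for genotype under vehicle. Alternative settings changed the pseudocount (0.1), the filter (none, or a mean above 1 TPM), the scaling (median-of-ratios), the weights of the mice and the covariates (marker means), blocked on mouse number, fitted all 4 groups at once or left out each mouse in turn. Promoter windows were searched in Python 3.11.15. Protein sequences were not used here.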

Additional observations from a re-analysis of the deposited data

Results flagged for a closer look

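In groups of 7 or 8 mice, 12 of 128 member groups (9.38%) had a lowest or highest mouse that stood far from the next by Dixon's criterion, which chance gives in about 1 of 20. WT vehicle mice gave 7 of the 12. Their mouse 1 was high for Nfkbia (47.7 TPM), Plin4 (12.6), Hif3a (10.9) and Cebpd (3.20), and their mouse 2 was high for Hsd11b1 (21.7) and Rasd1 (13.6) and low for Klf9 (80.3). In WT IMN mice, mouse 5 was high for Cdkn1a (46.7 TPM) and mouse 6 low for Fam107a (165). In Brd1+/- mice, vehicle mouse 3 was high for Nr3c2 (22.5 TPM), IMN mouse 2 high for Nedd9 (8.09) and IMN mouse 6 low for Xdh (4.46). Of the 33 members, 1 (3.03%) passed the nominal threshold for a different response to IMN in the genotypes, Zbtb16, by 1.71 on the log2 scale (limma, adjusted p = 0.261), where 3.74% of all genes passed. It was not called with the cortical (1.04) or the striatal (0.97) marker mean as a covariate.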

How the results depend on the processing

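Over 61 results for single members and 1853 settings, 1663 kept their direction and their side of the threshold, 142 lost the call, 21 gained one and 27 changed sign, and the cause was not tested. Shares of all genes called stand in brackets. For genotype under vehicle (2 members called), a pseudocount of 0.1 (12.9%), no filter (9.6%) and the oligodendrocyte covariate (9.27%) each gave 1, sample quality weights gave 5 (26.5%), and the cortical (1.93%) and striatal (1.44%) covariates gave 0. For genotype under IMN (0), the replicate block gave 1 (0.673%). For IMN in WT mice (4), the striatal covariate gave 2 (1.28%) and the oligodendrocyte covariate 7 (7.18%). For IMN in Brd1+/- mice (14), the striatal covariate gave 9, Lcn2 among them (1.49%). There the fit of all 4 groups gave 10 (1.17%), and so did the oligodendrocyte covariate (1.86%). For the interaction (1), quality weights gave 2 (13.6%), the replicate block 3 (11.1%), and the cortical (0.941%) and striatal (0.52%) covariates 0. Leaving out 1 mouse gave 0 to 3 (8.89% to 22.4%), 0 to 1 (0.55% to 1.09%), 2 to 9 (3.88% to 15.3%) and 11 to 15 (1.34% to 2.18%) in these 4 comparisons. It gave 8 to 13 for IMN averaged over genotypes (4.74% to 10.3%) and 1 to 2 for the interaction (2.16% to 10.2%). For Brd1+/- IMN against WT vehicle mice, Ddit4 passed at 0.71 with median-of-ratios scaling, 0.54 with quality weights and 0.50 with the oligodendrocyte covariate, where Sgk1 passed at 0.45, and leaving out 1 mouse gave 0.47 to 0.67 and 0.41 to 0.75. The median r of member pairs went from 0.283 to 0.193 with median-of-ratios scaling, 0.219 with the cortical and 0.143 with the oligodendrocyte marker mean removed.

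Sign changes were all in genes that did not pass. With the cortical covariate they were Nr3c1 (0.040) and Fkbp5 (−0.061) for genotype under vehicle, Tsc22d3 for genotype under IMN (0.021), IMN in WT (0.031) and IMN averaged (0.11), and Nr3c1 in the interaction (−0.026). With the striatal covariate they were Tsc22d3 for genotype under IMN (0.0043) and IMN averaged (0.030) and Nr3c2 for IMN in Brd1+/- mice (−0.095). With the oligodendrocyte covariate it was Tsc22d3 for IMN in Brd1+/- mice (−0.11). For genotype under IMN, median-of-ratios scaling turned Nr3c1 (0.025), Fkbp5 (0.0082) and Tsc22d3 (0.041), and quality weights Tsc22d3 (0.076). Leaving out 1 mouse gave −0.049 to 0.026 for Nr3c1, −0.0046 to 0.11 for Nr3c2, −0.012 to 0.15 for Ddit4 and −0.14 to 0.18 for Tsc22d3 in that comparison, and −0.019 to 0.33 for Tsc22d3 for IMN in Brd1+/- mice. Median-of-ratios scaling moved the share of lower calls over all genes from 89.2% to 57.9% for genotype under vehicle, 73.2% to 53.8% for genotype under IMN, 80.6% to 52.9% for IMN in WT mice, 77.1% to 54.2% for IMN averaged and 20.8% to 49.7% for the interaction. The labels do not say whether mouse numbers pair the animals, and the correlations of same-numbered mice do not settle it. For IMN in WT mice these ran from −0.432 to 0.452. With the number as a replicate block, 3, 1, 5 and 11 members were called in the 4 comparisons of 2 groups. All genes were called at 17.9%, 0.673%, 5.08% and 2.16% there. The block gave 10 for IMN averaged (11% of all genes) and 3 for the interaction (11.1%). In the 4 comparisons 0 of 7, 2 of 8, 2 of 8 and 3 of 7 same-numbered pairs correlated above 0.1.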
